A study of Mus musculus with 2 samples.

Results

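The genes described here are the immunoglobulin light chain variable (V) genes, taken as every gene of the deposited tables whose symbol starts with Igkv (the kappa locus) or Iglv (the lambda locus). There were 163 such genes among 32285, of which 160 were kappa and 3 were lambda (Iglv1, Iglv2 and Iglv3). The annotation of the mouse build the files use (GENCODE M21, GRCm38/mm10) lists 103 of them as V genes and 60 as V pseudogenes. They were read in plasma cells, the antibody-secreting cells of the B lineage. A barcode was called a plasma cell when it held at least 3 unique molecular identifiers (UMIs, each standing for 1 captured RNA molecule) of Mzb1 and at least 2 summed over Derl3, Tnfrsf17, Sdc1 and Prdm1. This gave 999 plasma cells in the vancomycin library and 95 in the control library.

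Both libraries were made from optic nerves of Nf1-OPG mice, a model of optic pathway glioma that carries Nf1flox/neo; GFAP-Cre. These mice have a neomycin cassette inserted in exon 31 of 1 Nf1 allele (Nf1+/-) in every cell, and lose the floxed allele where GFAP-Cre, active in neuroglial progenitors, removes it. Cells in which this Cre is not active are Nf1+/- in both groups. The animals received the antibiotic vancomycin or, per the series design, PBS from 6 to 12 weeks of age, and were harvested at 12 weeks. Each group is 1 library of 10 pooled mice, read with 10x Genomics 5′ chemistry, and the control group carries only the treatment label control. The protocol text also describes meningeal dura, and the labels do not tie barcodes to an animal.

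An antibody joins 2 heavy and 2 light chains, and each light chain comes from either the kappa or the lambda locus. In a developing B cell, recombination joins 1 V gene to a short joining (J) segment beside a constant gene (Igkc for kappa; Iglc1, Iglc2 or Iglc3 for lambda), and a cell normally keeps a single productive light chain. The mouse lambda locus holds very few V genes, and most mouse antibodies carry kappa. Plasma cells transcribe their rearranged light chain at a very high level, so the V gene with the most UMIs in a cell is taken below as its leading gene. All cells of a B cell clone share that gene, but cells of different clones can share it too: with V gene counts alone, 1 expanded clone, several clones and cells of different mice cannot be told apart.

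With 1 library per group there was no replicate and no test between groups. Intervals given in parentheses after a share are 95% exact binomial intervals (Clopper-Pearson). They cover counting error only, not the variation between mice or libraries. They also treat cells as independent, which cells that share a clone are not. The libraries held 144451114 UMIs over 16596 barcodes (vancomycin) and 25609899 UMIs over 4272 barcodes (control), and 15726 and 4108 barcodes passed the filters. Plasma cells made up 6.35% (5.98 to 6.75) and 2.31% (1.87 to 2.82) of them, with medians of 23406 and 27583 UMIs per cell. The 10 plasma cell markers were all detected, and at least 5 of them were found in 977 of 999 and 91 of 95 cells. The 7 B cell markers summed to 320 and 195 CPM (UMIs scaled to a total of 1000000). Of these Fcer2a was at 0 in both libraries, Ms4a1 stood at 40.8 and 37.1 CPM, Cd79b, which plasma cells can keep, at 187 and 144 CPM, and H2-DMb2 at 71.7 and 1.95 CPM. The 3 neutrophil markers were at 0. The 5 oligodendrocyte markers summed to 1739 CPM in vancomycin and 20.7 CPM in control plasma cells, and the 7 microglia and macrophage markers to 544 and 382 CPM. The 6 T cell markers summed to 141 and 240 CPM, with at least 3 of them in 144 of 999 and 21 of 95 cells. The 4 plasmacytoid dendritic cell markers summed to 648 and 518 CPM, mostly from Bst2 and Tcf4, and the 3 fibroblast markers to 29.2 and 0 CPM. The part of RNA of other cell types in the values below was not tested. The libraries shared 100 barcodes, none of them a plasma cell in both.

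The V genes on which the results turn are shown by the end of their germline transcript, where the V gene meets the J segment and where much of the antigen contact lies. Each line gives the last 60 bases of the annotated transcript, 5′ to 3′, from GENCODE M21. Capitals run from the codon of the conserved cysteine to the end of the gene, which is the germline start of the third complementarity-determining region. These are reference sequences and not reads of these mice. All kappa genes lie on chromosome 6 and all 3 lambda genes on chromosome 16.
Igkv1-117: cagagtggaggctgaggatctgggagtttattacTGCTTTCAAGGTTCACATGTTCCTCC
Igkv1-110: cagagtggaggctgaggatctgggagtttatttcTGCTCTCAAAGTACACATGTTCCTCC
Igkv8-30: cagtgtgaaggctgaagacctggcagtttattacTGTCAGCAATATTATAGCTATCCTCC
Igkv8-21: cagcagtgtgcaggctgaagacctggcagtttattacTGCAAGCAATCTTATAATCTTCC
Igkv15-103: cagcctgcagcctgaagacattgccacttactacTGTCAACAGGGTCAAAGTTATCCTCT
Igkv10-94: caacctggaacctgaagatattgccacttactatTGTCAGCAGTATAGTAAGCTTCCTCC
Igkv3-2: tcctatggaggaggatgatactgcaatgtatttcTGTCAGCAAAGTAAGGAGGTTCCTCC
Igkv6-13: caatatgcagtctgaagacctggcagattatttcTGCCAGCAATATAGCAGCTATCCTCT
Igkv6-15: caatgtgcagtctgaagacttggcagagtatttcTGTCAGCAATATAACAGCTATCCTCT
Iglv1: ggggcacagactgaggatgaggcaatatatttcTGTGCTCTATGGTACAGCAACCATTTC
Iglv2: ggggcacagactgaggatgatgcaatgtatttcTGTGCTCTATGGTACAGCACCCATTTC

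The whole transcripts of Igkv1-117 and Igkv1-110 were 97.5% identical over 401 aligned columns, and those of Iglv1 and Iglv2 were 96.98% identical over 364. Igkv8-30 and Igkv8-21 shared 93.6% over 358 columns, and Igkv6-13 and Igkv6-15 shared 93.7% over 347. In all, 26 of the 163 members had another member at least 97% identical over at least 250 columns, among them 12 of the 58 genes that led any cell, and reads of such pairs may have been split by the counting. For the first pair, few UMIs of the other gene were found in cells with a clear leading gene. In vancomycin cells led by Igkv1-117, counting only those whose second gene had at most 10% of the leading gene's UMIs, Igkv1-110 had a median of 3 UMIs and 0.158% of the light chain V UMIs. Cells led by neither gene had a median of 0. In the control library the cells led by Igkv1-117 had a median of 5 UMIs of Igkv1-110. The rule on the second gene leaves out any cell with a larger split, so these values cannot show how often reads were split.

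Light chain V genes took about the same large part of the plasma cell RNA in both libraries, and a single gene took almost all of it in most cells. They summed to 35.3% of plasma cell UMIs in the vancomycin and 37.2% in the control library, a ratio of 0.949 (95% exact Poisson interval 0.947 to 0.951, counting error only). A plasma cell held a median of 8691 light chain V UMIs (quartiles 5441 and 11671) after vancomycin and 10727 (5380 and 13927) in the control. A leading gene with at least 10 UMIs was found in 995 of 999 and in 95 of 95 cells. The leading gene held a median of 99.3% of a cell's light chain V UMIs in vancomycin and 99.7% in control cells, with medians of 8427 and 10697 UMIs, against 25 and 13 UMIs for the second gene.

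The leading gene held over 90% of the light chain V UMIs in 887 of 995 vancomycin cells (89.1%) and 93 of 95 control cells (97.9%). A second gene with over 25% of the leading gene's UMIs was present in 68 vancomycin cells (6.83%, 5.35 to 8.58) and in 1 control cell (1.05%, 0.0266 to 5.73). Those 68 cells held 51 different gene pairs, 5 of them cells whose genes belonged to 1 family and 3 cells with a kappa and a lambda gene. They had a median of 44169 UMIs in all, against 22818 in the other vancomycin plasma cells. Doublets, barcodes that caught more than 1 cell, were not removed, and their part in these cells was not tested.

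**Figure D1:**
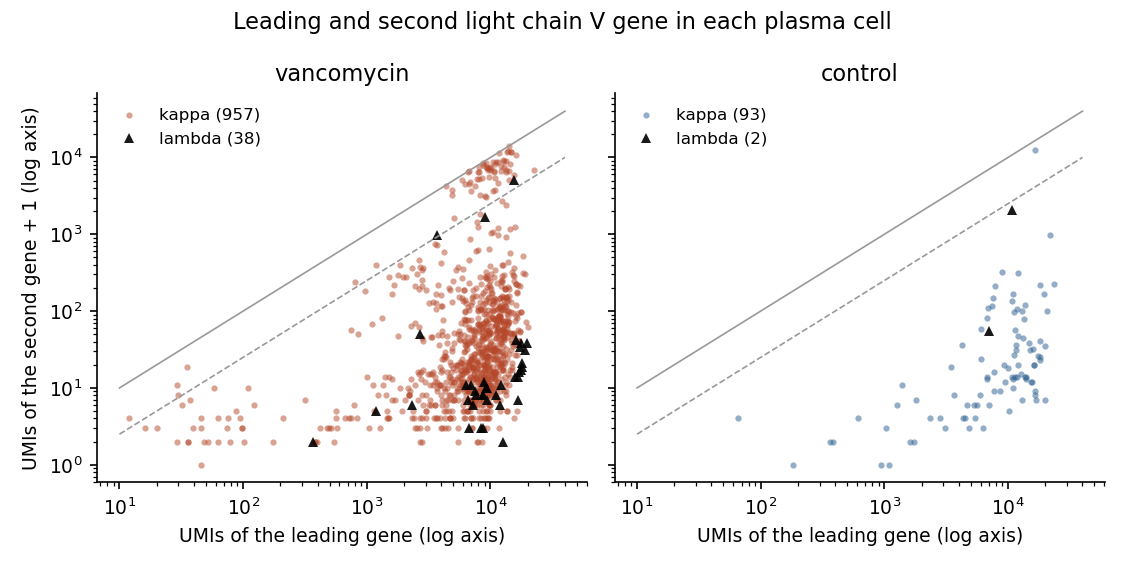
UMIs of the leading light chain V gene (x) and of the second gene plus 1 (y) in each plasma cell, both on log axes, for the vancomycin (left) and control (right) library. Dots are kappa cells, triangles lambda cells, the solid line marks equal UMIs and the dashed line 25% of the leading gene. Most cells lie far below the dashed line. In 68 vancomycin cells and 1 control cell the second gene had over 25% of the leading gene's UMIs. Because 1 is added on the y axis, some further cells with few UMIs are drawn just above the line.

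Which gene led the cells differed between the libraries in a few members and was alike in several others. Igkv1-117 (chromosome 6, 68121046 to 68121827, plus strand) led the most cells in both. It led 151 of 995 vancomycin cells (15.2%, 13.0 to 17.6) and 35 of 95 control cells (36.8%, 27.2 to 47.4), a difference of -21.7 percentage points. Its median in the cells it led was 9555 UMIs (12 to 18481) after vancomycin and 13021 (66 to 21825) in the control. The intervals of the shares do not overlap, but they are too narrow where cells share a clone, and no test was made. The difference rested on the cells that paired the gene with Ighv1-19. Without them, a choice made after seeing the data, the share was 9.83% (8.0 to 11.9) after vancomycin and 9.09% (3.41 to 18.7) in the control.

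Igkv8-30 (chromosome 6, 70117061 to 70117620, minus strand) came next in both libraries. It led 112 cells (11.3%, 9.36 to 13.4) after vancomycin and 12 cells (12.6%, 6.70 to 21.0) in the control. Igkv15-103 (68437440 to 68437925, plus strand) led 90 cells (9.05%, 7.34 to 11.0) and 5 cells (5.26%, 1.73 to 11.9). Igkv1-110 (68270485 to 68271267, plus strand) led 55 cells (5.53%, 4.19 to 7.13) and 7 cells (7.37%, 3.01 to 14.6). For these 3 genes the intervals of the 2 libraries overlapped, which is not a test, and no difference is read from 95 control cells. The same held for Igkv6-15 (47 cells, 4.72%, against 3 cells, 3.16%), Igkv16-104 (34 cells, 3.42%, against 3 cells, 3.16%) and Igkv5-48 (25 cells, 2.51%, against 3 cells, 3.16%).

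The 3 members with the largest excess after vancomycin were Igkv10-94, Igkv8-21 and Igkv3-2. Igkv10-94 (68704508 to 68704978, minus strand) led 68 vancomycin cells (6.83%, 5.35 to 8.58) and 0 of 95 control cells, which allows a share of up to 3.16%. Igkv8-21 (70314895 to 70315472, minus strand) led 78 cells (7.84%, 6.25 to 9.69) and 1 cell (1.05%, 0.0266 to 5.73). Igkv3-2 (70698449 to 70699067, plus strand), which lies 27.4 kb from Igkc, led 54 cells (5.43%, 4.10 to 7.02) and 0 control cells. The vancomycin intervals of all 3 lay above the control interval or limit. The 3 were picked from all members for the size of this difference, so this separation can follow from the choice and is not a test. In the other direction, Igkv6-13 (70457501 to 70458036, minus strand) led 16 vancomycin cells (1.61%, 0.922 to 2.60) and 7 control cells (7.37%, 3.01 to 14.6). Its cells held a median of 9181 UMIs after vancomycin and 16558 in the control. Igkv14-100 and Igkv4-55 each led 2 control cells (2.11%, 0.256 to 7.40) and 0 of 995 vancomycin cells, which allows up to 0.302%.

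**Figure D2:**
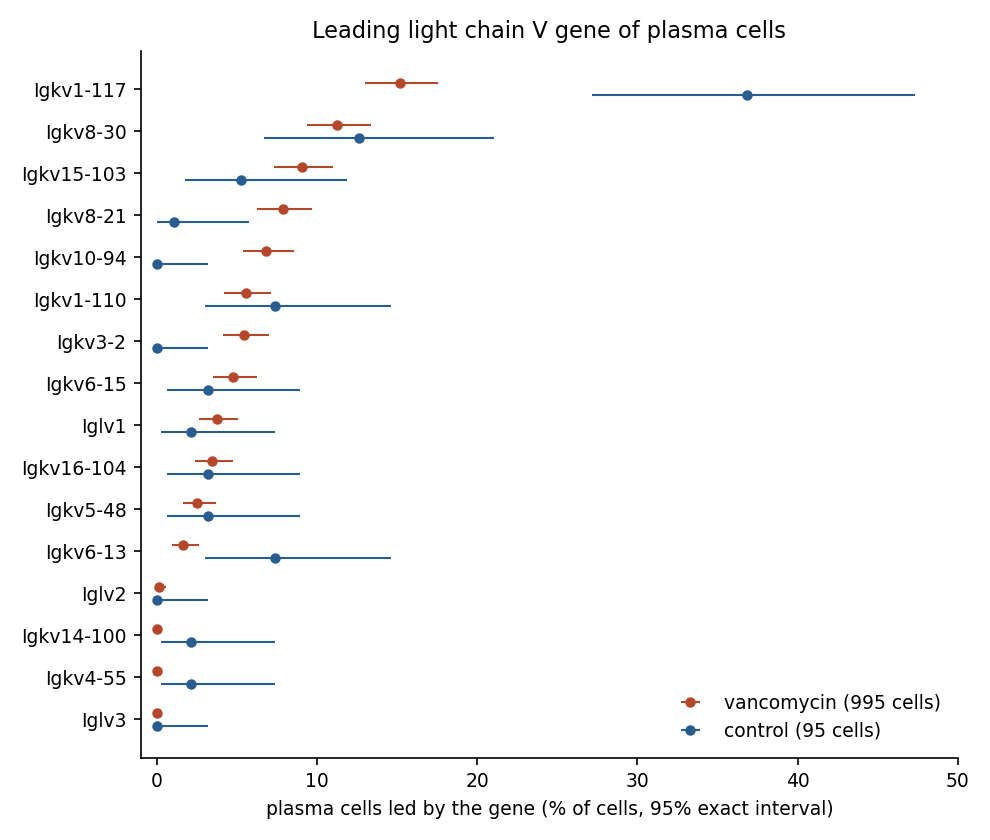
Share of plasma cells led by each named light chain V gene (x, % of cells), in the vancomycin (995 cells) and control (95 cells) library; bars are 95% exact binomial intervals, and for a gene that led 0 cells the share that 3 cells would give. Igkv1-117 stands at 15.2% and 36.8%, while most other control bars are wide and overlap the vancomycin value.

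Across all members, 54 genes led at least 1 cell after vancomycin and 21 in the control. Both libraries shared 17 of these, which is 81.0% of the control genes and 31.5% of the vancomycin genes. The 4 genes that led control cells only were Igkv12-44, Igkv14-100 and Igkv4-55, with 2 cells each, and Igkv2-109, with 1 cell. The remaining 105 members led no cell, namely all 60 pseudogenes and 45 V genes, and 61 members had no UMI in any plasma cell. No pseudogene led a cell, although 13 of the 60 had at least 1 UMI.

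Use was less even in the control library. The effective number of leading genes, the number of equally used genes that would give the same chance of drawing 2 cells with the same gene, was 14.6 after vancomycin and 6.12 in the control. The 5 most used genes led 50.2% of vancomycin and 69.5% of control cells, and the 10 most used led 73.0% and 83.2%. At an equal number of 95 cells, 25.4 different leading genes are expected in the vancomycin library, against 21 found in the control. Much of the gap in evenness lay in 1 V gene pair. Without the cells of Igkv1-117 with Ighv1-19, a choice made after seeing the data, the effective number was 16.3 after vancomycin and 14.4 in the control. This was the largest pair of the control, so leaving it out was bound to narrow the gap and is not a test. Counting cells with the same light V gene, heavy V gene and antibody class once gave 24.5 and 21.2.

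**Figure D3:**
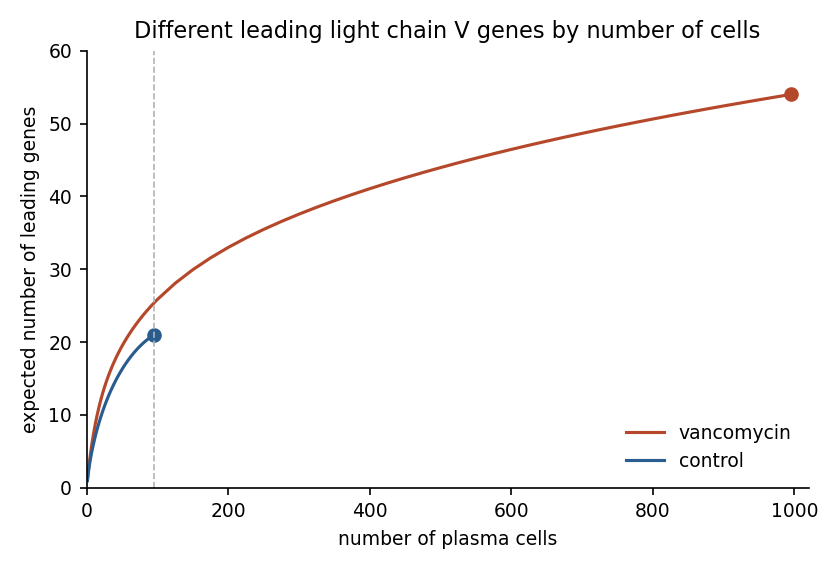
Expected number of different leading light chain V genes (y) in a random draw of a given number of plasma cells (x), computed from the cells of each library without random draws; dots mark the full libraries, with 54 genes in 995 cells and 21 genes in 95 cells. The dashed line marks 95 cells, where the vancomycin curve stands at 25.4.

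Antibody class, taken as the heavy chain constant class with the most UMIs, split the same way in both libraries. IgA cells were 451 of 995 (45.3%, 42.2 to 48.5) and 43 of 95 (45.3%, 35.0 to 55.8), IgG cells 534 and 51, and IgM cells 9 and 0. The effective numbers were 15.3 and 12.0 in IgA cells and 12.6 and 3.83 in IgG cells. Igkv1-117 led 80 of 534 IgG cells after vancomycin (15.0%, 12.1 to 18.3) and 25 of 51 in the control (49.0%, 34.8 to 63.4). In IgA cells it led 70 of 451 (15.5%, 12.3 to 19.2) and 9 of 43 (20.9%, 10.0 to 36.0). Without the cells that paired it with Ighv1-19, again a choice made after seeing the data, the effective numbers in IgG cells were 13.6 and 10.6. The difference between the classes was not tested.

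Within the vancomycin library the IgA share differed widely between cells of different leading genes. Counting IgA and IgG cells only, it was 80.0% (61.4 to 92.3) of the 30 Igkv1-135 cells, 72.7% (59.0 to 83.9) of the 55 Igkv1-110 cells and 70.8% (48.9 to 87.4) of the 24 Igkv5-48 cells. It was 34.8% (26.1 to 44.4) of the 112 Igkv8-30 cells, 25.6% (16.9 to 35.8) of the 90 Igkv15-103 cells and 11.1% (2.35 to 29.2) of the 27 Igkv6-14 cells. Igkv1-117 (46.7%) and Igkv8-21 (51.3%) lay near the share of all cells. Igkv1-135 and Igkv6-14 are named here for these values, after they were seen. Cells that share a clone are not independent, so these intervals are too narrow as statements about genes.

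Grouped by family, the number before the hyphen in the symbol, the Igkv1 family led 24.1% (21.5 to 26.9) of vancomycin and 44.2% (34.0 to 54.8) of control cells. The Igkv8 family led 19.8% and 15.8%, and Igkv6 led 13.0% and 13.7%. The Igkv10 family, of 3 genes, led 81 vancomycin cells (8.14%, 6.52 to 10.0) and 0 control cells. Igkv1, Igkv8 and Igkv6, the most used families in both libraries, had 10, 10 and 9 V genes. Use did not follow family size in every family, and the relation was not tested. Igkv4 is the largest family, with 33 members and 26 V genes, and led 6.53% and 3.16% of cells, whereas the single Igkv15 V gene led 9.05% and 5.26%. The Igkv7, Igkv11, Igkv18 and Igkv20 families, with 1 V gene each, led no cell in either library.

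Kappa V genes are strung out over 3170 kb on 1 side of Igkc (chromosome 6, 70726435 to 70726966, plus strand), in both orientations, and can be joined from any distance. Use was lowest in the middle of this array in both libraries. The 34 of 100 annotated kappa V genes nearest to Igkc, 22.3 to 825 kb away, led 41.1% (37.9 to 44.3) of vancomycin and 32.3% (22.9 to 42.7) of control kappa cells. The 33 genes in the middle, 868 to 1891 kb away, led 11.2% (9.25 to 13.4) and 10.8% (5.28 to 18.9). The 33 farthest genes led 47.8% (44.5 to 51.0) and 57.0% (46.3 to 67.2). The far genes thus led a larger share of cells than their share of genes in both libraries, while the interval of the near genes, 34% of the genes, lay above that share after vancomycin and included it in the control. Only 1 of the middle genes lies on the strand of Igkc, against 13 of the nearest and 24 of the farthest genes. The 38 genes on the strand of Igkc, 38% of the genes, led 47.2% (44.0 to 50.5) and 59.1% (48.5 to 69.2) of kappa cells. Igkv1-117, 2605 kb away and on this strand, by itself led 15.2% of vancomycin and 36.8% of control plasma cells. The far and same-strand shares thus rest in part on this gene, most of all in the control, and shares without it are not given here.

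**Figure D4:**
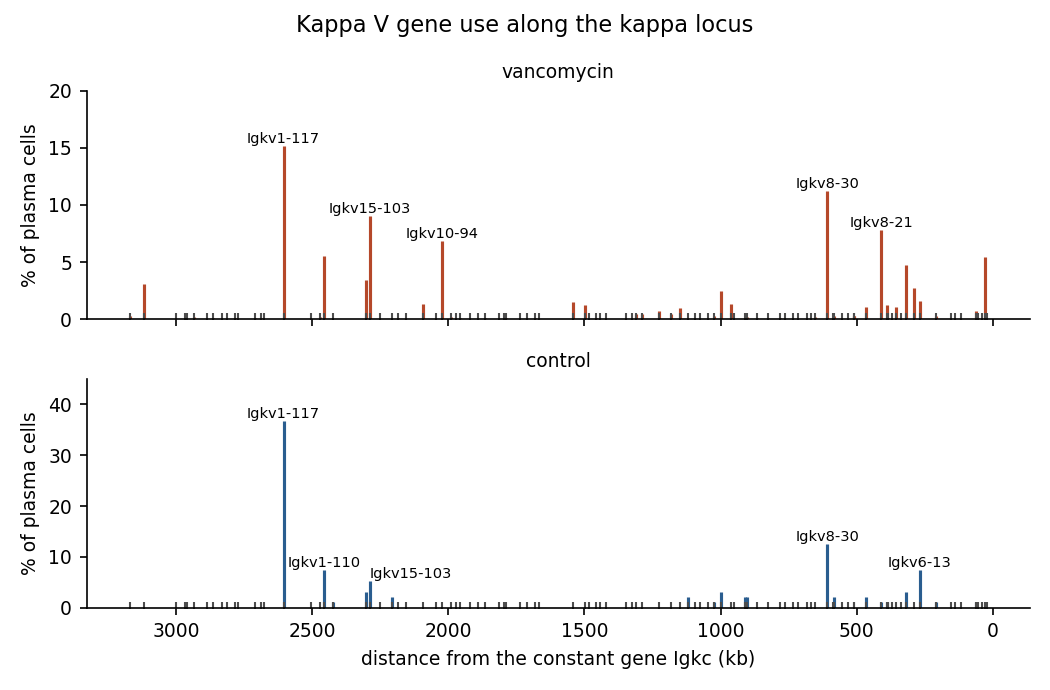
Share of plasma cells led by each kappa V gene (y, % of cells; the scales of the panels differ) against its distance from the constant gene Igkc (x, kb), for the vancomycin (top) and control (bottom) library. Ticks mark all 100 annotated kappa V genes and the 5 most used genes are named; the genes between 868 and 1891 kb led 11.2% and 10.8% of kappa cells.

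Lambda cells were rare in both libraries. A lambda V gene led 38 of 995 vancomycin cells (3.82%, 2.72 to 5.20) and 2 of 95 control cells (2.11%, 0.256 to 7.40). The intervals overlapped, a difference was not tested, and none is read from these values. Iglv1 (chromosome 16, 19085017 to 19085500, minus strand) led 37 of the 38 vancomycin cells and both control cells, with medians of 9388 and 8930 UMIs. Iglv2 (19260401 to 19260859) led 1 vancomycin cell and Iglv3 (19241207 to 19241690) led none. By class, lambda cells were 19 of 451 IgA (4.21%, 2.56 to 6.50) and 18 of 534 IgG cells (3.37%, 2.01 to 5.28) after vancomycin, and 2 of 43 IgA and 0 of 51 IgG cells in the control, which allows up to 5.88%. The vancomycin share rested on cells of 1 V gene pair: 36 of the 37 Iglv1 cells had Ighv1-66 as heavy V gene, 18 of them IgA and 18 IgG. Without these cells, a choice made after seeing the data, the lambda share was 0.209% after vancomycin and 2.11% in the control. No control cell had this pair, so leaving it out could lower only the vancomycin share and is not a test. With equal V pairs of a class counted once the share was 1.63% and 4.26%, the reverse of the order over all cells. The control values rest on 2 lambda cells.

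The constant gene matched the V gene in most cells. In mice Iglv2 is mostly joined to Iglc2 and Iglv1 to Iglc1 or Iglc3. Iglc1 had the most UMIs of the lambda constant genes in 37 of 37 and 2 of 2 Iglv1 cells, and Iglc2 had the most in the Iglv2 cell. That cell also held 1654 UMIs of the near-identical Iglv1. Calling a cell lambda where Iglc1, Iglc2 and Iglc3 together exceeded Igkc gave the same class as the V gene in 96.4% of vancomycin and 100% of control cells. By constant genes the vancomycin lambda share was 7.24%. It then took in 35 cells with a kappa V gene and more lambda than kappa constant UMIs. Their leading V gene had a median of 63 UMIs, and under 500 UMIs in 32 of them, against a median of 8427 over all cells. V genes gave more UMIs than constant genes throughout, with a median of 22.2 V UMIs per Igkc UMI in vancomycin kappa cells and 19.1 in control kappa cells.

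Pairing each light V gene with the heavy V gene (Ighv) of the most UMIs in the cell gave many pairs in the vancomycin library and a strong lead of 1 pair in the control. A heavy V gene was called in 966 of 995 and 92 of 95 cells, giving 181 different pairs after vancomycin and 35 in the control, of which 94 and 19 were seen in 1 cell. After vancomycin 34 pairs had at least 5 cells and held 733 cells (73.7%). In the control 3 such pairs held 44 cells (46.3%); with 95 cells fewer pairs can reach 5, so these shares do not compare the libraries. The effective number of pairs does not depend on the number of cells in expectation. With an uncalled heavy gene treated as a partner, it was 29.6 after vancomycin and 9.42 in the control. By class it was 40.9 and 43 in IgA cells and 18.9 and 4.21 in IgG cells, so the gap was seen in IgG cells. The control IgA value comes from 43 cells and exceeds the 29 pairs seen in them. It is thus unstable, and the IgA values do not compare the libraries. At an equal number of 95 cells, 47.6 different pairs, counted the same way, are expected after vancomycin, against 38 in the control. Of the pairs with at least 5 cells, 31 of the 34 after vancomycin and 3 of the 3 in the control had both IgA and IgG cells.

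Pairs that the libraries shared numbered 9, or 4.97% of the vancomycin and 25.7% of the control pairs, and held 34.4% (31.4 to 37.4) and 50.5% (40.1 to 60.9) of the cells. Igkv8-30 with Ighv1-81 was found in 105 vancomycin cells (10.6%; 34 IgA, 71 IgG) and 8 control cells (8.42%, 3.71 to 15.9; 3 IgA, 5 IgG). Igkv1-117 with Ighv1-19 was found in 59 vancomycin cells (5.93%, 4.54 to 7.58; 12 IgA, 47 IgG) and 29 control cells (30.5%, 21.5 to 40.8; 5 IgA, 24 IgG). Igkv15-103 with Ighv1-81 was found in 73 cells (12 IgA, 61 IgG) and 2 cells, and Igkv8-21 with Ighv8-12 in 67 cells (31 IgA, 36 IgG) and 1 cell. The animals in the 2 pools are different mice, so cells of a pair found in both libraries do not come from 1 clone of 1 mouse. Igkv10-94 with Ighv1-66 (49 cells), Iglv1 with Ighv1-66 (36 cells) and Igkv1-117 with Ighv1-42 (34 cells; 30 IgA, 4 IgG) were found after vancomycin only, where 0 of 95 control cells allows up to 3.16%.

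By pair and class, the 3 largest groups after vancomycin were IgG cells of Igkv8-30 with Ighv1-81 (71), Igkv15-103 with Ighv1-81 (61) and Igkv1-117 with Ighv1-19 (47). In the control they were IgG cells of Igkv1-117 with Ighv1-19 (24), IgG cells of Igkv6-13 with Ighv1-26 (6) and 2 groups of 5 cells, IgA cells of Igkv1-117 with Ighv1-19 and IgG cells of Igkv8-30 with Ighv1-81. Light V genes differed in how many partners they had. Igkv8-30 was with Ighv1-81 in 95.5% of its vancomycin cells. Igkv1-117 was with 20 different heavy V genes, the most frequent in 41.0% of its cells, and Igkv1-110 with 14, the most frequent in 21.8%. In the control 29 of 34 Igkv1-117 cells (85.3%, 68.9 to 95.0) had Ighv1-19. All 7 control cells of Igkv6-13 had Ighv1-26 (6 IgG, 1 IgA), a pair found in 0 of 995 vancomycin cells. The vancomycin excess of Igkv10-94 and Igkv8-21 also lay mostly in 1 pair each, with the leading heavy gene in 75.4% and 88.2% of their cells.

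Summed over plasma cells, the levels of single members spread widely between the libraries. Called here means a ratio of at least 2-fold in CPM after adding 10 CPM to both, among genes with at least 50 UMIs over both libraries. Of all 11055 such genes, 4.11% were higher and 0.868% were lower after vancomycin, so that 82.5% of these calls were higher, or 69.7% with TMM scaling and 69.0% with DESeq2 size factors. Of the 163 members, 79 had enough UMIs, and 48 of these were higher and 17 lower; 29 of the 79 had no UMI in the control and 5 none after vancomycin. A member passes the UMI filter through the cells it leads, and 995 cells sample more genes than 95, so these counts describe the 2 libraries and nothing is read from them about regulation of the members. The median log2 ratio was 2.89 over the 79 members, or 4.0 with genes at 0 set to the bound that 3 UMIs per library give, against 0.20 over all 11055 genes.

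Summed levels followed the cells led. Igkv1-117 stood at 57588 CPM after vancomycin and 155494 CPM in the control, a log2 difference of -1.43. Igkv8-30 stood at 36357 and 38503 CPM (-0.08). Iglv1 stood at 18204 and 8077 CPM (1.17). Igkv10-94 stood at 18463 CPM after vancomycin and at 0.390 CPM, 1 UMI, in the control. Iglv3 led no cell in either library and still stood at 250 and 239 CPM (0.07). The difference of Iglv3 was under 2-fold while most kappa V genes that led cells were not, and its UMIs came from cells led by other genes.

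Kappa plasma cells carried lambda RNA in both libraries. The values come from clear kappa cells, those whose second light V gene had at most 10% of the leading gene's UMIs (858 after vancomycin, 92 in the control). Iglc2 had at least 1 UMI in 96.6% and 96.7% of them, with medians of 25 and 21 UMIs. Iglv1 had a UMI in 88.5% and 79.3%, with medians of 12 and 5.5, and Iglv3 in 89.0% and 88.0%, with medians of 5 and 4. Iglv2 was found in 16.1% and 15.2%. Igkc had medians of 346 and 522.5 UMIs in the same cells. Iglv1 was the most frequent second gene, in 431 of 858 (50.2%) and 35 of 92 (38.0%) cells, followed by Iglv3 in 78 and 15 cells.

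The same genes were rarely seen in cells that should lack them. T cells (2058 and 1567, median depth 4382 and 5135 UMIs, against 22786 and 26893 in the clear kappa cells) had a UMI of Iglc2 in 2.28% and 0.638%, of Iglv1 in 4.81% and 0.574%, and of Iglv3 in 0.340% and 0 of 1567. In microglia (1653 and 1158, median depth 9498 and 5616) Iglv3 had a UMI in 0.242% and 0.259%. On the CPM scale, Iglv1 stood at 1665 and 1154 CPM in clear kappa cells and at 7.94 and 0.999 CPM in T cells. Iglc2 stood at 1382 and 1148 CPM against 3.89 and 1.11 CPM, and Iglv3 at 251 and 220 CPM against 0.545 and 0 CPM. Set against depth, the levels in kappa cells were thus far above those in these T cells of the same library. The T cells and microglia were chosen without Mzb1, Cd79a or Jchain UMIs. Barcodes with more plasma cell RNA may thus be left out, and these levels may understate the background.

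Lambda RNA was spread over kappa cells of many leading genes but not evenly. After vancomycin the median of Iglv1 ranged from 2 UMIs in the 5 Igkv4-61 cells to 77 in the 15 Igkv4-74 cells, with 51 in the 83 Igkv15-103 cells, 10 in the 135 Igkv1-117 cells and 9 in the 109 Igkv8-30 cells. In the control it was 7 in 35 Igkv1-117 cells and 3 in 5 Igkv15-103 cells. IgG kappa cells had more than IgA kappa cells in both libraries, with medians of 20 against 6 UMIs and 8 against 2.5. Their Igkc medians were higher as well, with 446 against 259 UMIs and 789 against 376.5, so the gap was wider for Iglv1 than for Igkc. Iglc2 was the lambda constant gene with the most UMIs in 79.9% and 78.5% of kappa cells, whereas Iglc1 was in all Iglv1 cells. The reverse was small: lambda cells had a median of 2 Igkc UMIs after vancomycin. Whether doublets or another source gave this RNA was not tested.

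**Figure D5:**
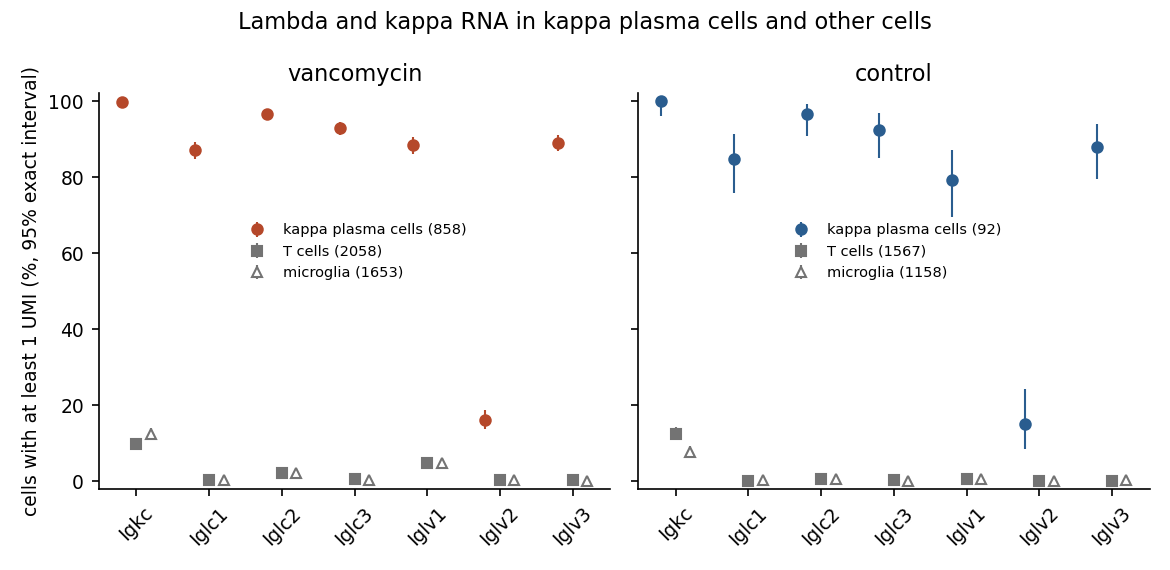
Share of cells with at least 1 UMI (y, %) of Igkc, the lambda constant genes and the lambda V genes (x), in clear kappa plasma cells, T cells and microglia of the vancomycin (left) and control (right) library; bars are 95% exact binomial intervals. Iglc2 and Iglv3 are found in 96.6% and 89.0% of vancomycin kappa plasma cells and in 2.28% and 0.340% of T cells, which are shallower.

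Light chain V RNA as a whole was present at a low level in the T cells and microglia. Their choice without Mzb1, Cd79a or Jchain UMIs may make this level too low. A member UMI was found in 76.8% (74.9 to 78.6) of vancomycin and 64.2% (61.8 to 66.6) of control T cells, and in 77.5% and 64.5% of microglia. The level was 480 and 228 CPM in T cells and 253 and 210 CPM in microglia, against 352692 and 371642 CPM in plasma cells, and no T cell or microglial barcode had more than 33 UMIs. Igkv1-117 was the most frequent member in T cells, with 18.2% and 22.3% of their light chain V UMIs, as it was in plasma cells. In microglia it was the most frequent after vancomycin (17.9%), and Igkv8-30 was in the control (23.6%). Of the 10 most abundant members in T cells, 8 were among the 10 most abundant in plasma cells of the same library.

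Most genes that act with the light chain V genes differed by under 2-fold between the libraries. The list held 31 genes: the light chain constant and J segments, the surrogate light chain and recombination genes, B cell receptor partners and plasma cell genes. Of the 18 with enough UMIs, 0 were at least 2-fold higher and 2 were lower after vancomycin, against 4.11% and 0.868% of all genes, with a median log2 ratio of -0.12. The 2 lower genes were the J segments Igkj2 (1 UMI after vancomycin, 447 in the control) and Igkj5 (0 and 290). The libraries were counted with different Cell Ranger versions, 7.2.0 and 6.0.1, and in these counts, as in every comparison here, version and treatment cannot be told apart. Igkc stood at 15835 and 21416 CPM, a ratio of 0.739 (95% exact Poisson interval 0.733 to 0.746). Iglc1 (792 and 643 CPM, ratio 1.23) and Iglc2 (1388 and 1147 CPM, ratio 1.21) were higher and Iglc3 (298 and 382 CPM, ratio 0.780) lower, all by under 2-fold. Jchain, which links IgA and IgM units, had a ratio of 0.922, and Sdc1, the surface marker CD138, 0.648. The B cell receptor partner Cd79a had a ratio of 1.35 and Vpreb3, a member of the VpreB family, 1.58. Rag1 and Rag2, which cut the DNA in V gene recombination, had too few UMIs to compare.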

How the data were processed

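Single cell RNA of 1 vancomycin and 1 control library was analysed from the deposited UMI counts per gene and barcode. Per the file headers, the authors counted reads with Cell Ranger 7.2.0 (vancomycin) and 6.0.1 (control); the submitters' processing notes list the mm10 genome and Partek. Intron counting, cell calling and doublet removal are not given in the sources used here.

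Barcodes with at least 500 UMIs, 200 genes and at most 20% mitochondrial UMIs were kept. The leading gene is the light chain V gene with the most UMIs, at least 10. Evenness is the inverse of the unbiased Simpson index. UMIs of 5′ libraries were not divided by gene length. Intervals are exact (95%), and a count of 0 was given the limit of 3 counts. T cells (at least 2 Cd3e, Cd3d and Cd3g UMIs) and microglia (at least 3 UMIs summed over microglial marker genes), without Mzb1, Cd79a or Jchain UMIs, gave the background. edgeR 4.0.16 and DESeq2 1.42.0 served only for other scalings. The code was tested on simulated data. Positions and sequences are from GENCODE M21, matched by gene ID for 163 of 163 members; promoter and protein sequences were not used here.

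The genes named are the 10 that lead the most cells in each library, all Iglv genes, the 3 with the largest difference in share each way and the 3 largest groups of equal V pair and class. Some genes of the marker and gene lists are not reported here. Members and lists were chosen with earlier results of these data known.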

Additional observations from a re-analysis of the deposited data

Results flagged for a closer look

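For 5 of the 16 named light chain V genes the share of cells led moved in opposite directions in IgA and IgG cells, as vancomycin minus control in percentage points. With 1 library per group the difference between the classes was not tested. Igkv8-30 differed by -5.31 points in IgA cells (39 of 451 against 6 of 43) and by 1.91 points in IgG cells (73 of 534 against 6 of 51). Igkv15-103 differed by -4.20 points in IgA cells (23 against 4 cells) and by 10.6 points in IgG cells (67 against 1 cell). Igkv6-15 differed by -2.32 points in IgA cells (21 against 3 cells) and by 4.87 points in IgG cells (26 against 0 cells). Igkv16-104 differed by 0.78 points in IgA cells (14 against 1 cell) and by -0.18 points in IgG cells (20 against 2 cells). Iglv1, and with it the lambda share, differed by -0.44 points in IgA cells (19 against 2 cells) and by 3.37 points in IgG cells (18 against 0 cells). Each control value rests on 0 to 6 cells. For all 5 genes the intervals of the libraries overlapped in IgA and in IgG cells. The overlap was slight for Igkv15-103 in IgG cells, with 9.86 to 15.7% after vancomycin and 0.0496 to 10.4% in the control. Overlap of intervals is not a test, and the moves were not tested. Iglv2 and Iglv3, among the 16, led no cell of either class and could not move.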

How the results depend on the processing

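Of 150 values under other settings, 129 stayed within their counting interval (shares of cells) or within 1.5-fold (other values) and 21 did not. Some settings could hardly move a value, so the 129 are no measure of robustness. Dropping the barcode filter left the same 999 and 95 plasma cells. Leaving out pseudogenes could not change a leading gene, since no pseudogene led a cell. No paired analysis was possible because each group is 1 library. The vancomycin plasma cell share was 7.08% under a looser and 5.81% under a stricter marker rule. Its lambda share was 1.63% with equal V pairs of a class counted once, 7.24% by constant genes, 5.34% by summed UMIs and 0.209% without Iglv1 cells of Ighv1-66; the control share was 0% in non-IgA cells. The lambda share, higher after vancomycin by the V gene of all cells, was lower than in the control with pairs counted once (control 4.26%), in IgA cells (4.21% against 4.65%) and without Iglv1 cells of Ighv1-66 (control 2.11%). The effective number with equal pairs counted once was 24.5 after vancomycin and 21.2 in the control, whose value was 12.0 in IgA cells, 3.70 in non-IgA cells and 14.4 without Igkv1-117 cells of Ighv1-19. The log2 ratio of the effective numbers, 1.25, was 0.21, 0.35 and 0.18 under the pair, IgA and Ighv1-19 settings. Leaving out the cells of a V pair was chosen after seeing the data. No control cell had Iglv1 with Ighv1-66, so that setting could lower only the vancomycin lambda share. Of all genes, 96 were lower, against 149 with TMM scaling, 153 with DESeq2 size factors, 178 with 1 CPM added and 51 with 50 CPM added; 454 were higher, against 2240 with 1 CPM and 160 with 50 CPM. Scaling moved the median of all genes from 0.20 to 0.05 (TMM) or 0.04 (DESeq2), and higher genes from 82.5% of calls to 69.7% or 69.0%. The 95 control cells limit every comparison of shares, since 0 of them allows up to 3.16%.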
